A study of Mus musculus with 12 samples.

Results

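The nuclear-encoded subunits of the 4 respiratory chain complexes and of ATP synthase (complex V) were followed across 4 groups of mouse lung cancer libraries. Genes were taken by symbol: Nduf genes of the A, B, C, S and V series, Sdha to Sdhd, Uqcr genes, the Cox4 to Cox8 series, and Atp5 genes. The rule found 82 of the 19212 genes in the expression table: 37 of complex I, 4 of complex II, 8 of complex III, 16 of complex IV and 17 of complex V. Ndufa4 and its paralog Ndufa4l2 were counted with complex IV, to which the Ndufa4 protein has been reassigned. Cox4i1 and Cox4i2, whose symbols carry an extra letter, fell outside the rule and are given beside it.

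All tumours came from LLC cells, a mouse Lewis lung carcinoma line, placed in the lungs of mice, and every library is labelled lung cancer. Group OTUB1_KD had LLC cells carrying a lentivirus that knocks down OTUB1, a deubiquitinase, and group NC had LLC cells carrying a negative control lentivirus, genotype WT. Group SFD@M had WT tumours in mice given SFD@M, a preparation the labels do not describe, and group Blank had WT tumours in mice given physiological saline. Each group has 3 libraries. The labels do not say whether a group's libraries stem from different animals, and they give no age, sex, strain or number of knockdown clones. The p-values therefore cover only library-to-library spread, and that spread may be technical. Values are CPM, the share of a library's counts scaled by TMM within each comparison, unless given as TPM, a share corrected for transcript length. Summed marker values are CPM without TMM. Values for the difference between the experiments, and complexes summed on CPM, are scaled by TMM over all 12 libraries. A change was called at a Benjamini-Hochberg adjusted p under 0.05 in edgeR's quasi-likelihood test over all genes tested.

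Complex I passes electrons from NADH to ubiquinone, complex II does so from succinate, complex III hands them to cytochrome c and complex IV to oxygen. The protons pumped by complexes I, III and IV drive ATP synthase, whose rotor turns inside a catalytic head. A few subunits come in tissue forms: the heart and skeletal muscle forms of COX6A, COX7A and COX8, the COX4I2 form known from lung, and the testis form COX6B2 are encoded by genes separate from those that most cells use.

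The libraries held 16062806 to 18028828 counts. Otub1 itself was at 57.1, 47.4 and 71.2 CPM in OTUB1_KD against 78.1, 75.7 and 71.5 CPM in NC (log2 fold change -0.36, SE 0.18, adjusted p = 0.112), so its decrease was not called and replicate 3 of OTUB1_KD lay next to the NC libraries. In SFD@M it fell relative to Blank (log2 fold change -0.71, SE 0.05, adjusted p = 5.8e-06). Markers of lung tissue were nearly missing from NC and Blank: 13 lung epithelial genes summed to 23089.9 to 56022 CPM in OTUB1_KD and 20.7 to 24.1 CPM in NC, and to 60929 to 63409.5 CPM in SFD@M and 13.4 to 13.9 CPM in Blank, with 3 of the 13 at 0 in every library of NC and of Blank. Ptprc, the pan-leukocyte marker, was at 219, 229.6 and 154 CPM in OTUB1_KD against 0.191, 0 and 0 CPM in NC, and at 218, 208 and 224 CPM in SFD@M against 0, 0 and 0.059 CPM in Blank. Summed markers of endothelium were at 1135 to 2750.3 CPM in OTUB1_KD and 5.23 to 5.67 CPM in NC, and at 2825 to 3911 CPM in SFD@M and 2.04 to 2.67 CPM in Blank. Mki67, a marker of dividing cells, was at 202, 69.3 and 47.7 CPM in OTUB1_KD against 725, 710.1 and 708 CPM in NC, and at 8.000, 26.3 and 32.6 CPM in SFD@M against 703, 691 and 698 CPM in Blank. The 4 Y-linked genes listed summed to 0.636 to 127 CPM in OTUB1_KD and 340.5 to 348 CPM in NC, and to 0.177 to 1.64 CPM in SFD@M and 368 to 375 CPM in Blank. Both comparisons thus set libraries rich in lung tissue RNA against libraries nearly free of it, and the part of this difference in the results below was not tested. In bulk RNA, fewer cells of a type and less RNA per cell cannot be told apart.

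Promoters were read from RefSeq (build GRCm38.p6, used for sequence and names only, since the authors' build was GRCm39) for 67 of the 82 genes, each as 250 bases before and 50 after the gene's start. Recognition sequences of 4 factors known to act on respiratory genes were searched on both strands of the 300 bases. NRF1's GCGCATGCG was in 8 promoters (11.9%, against 1.95% of all 27025 promoters), the GABP site CCGGAAG in 17 (25.4%, against 9.93%), ESRRA's TGACCTT in 8 (11.9%, against 5.38%) and the YY1 core AAGATGGC in 10 (14.9%, against 3.19%). At least 1 of them was in 34 promoters (50.7%, against 18.9%). A match is a description of these letters, and no match says nothing about binding. The 250 bases before the start are shown for 4 genes. Atp5l and Cox6a1 show what matches look like, and Atp5b and Cox8b, a muscle form, carry none. Genes with and without a match went both ways, untested as groups: in SFD@M 7 of the 34 genes with a match rose and 21 fell, against 6 and 23 of the 32 tested genes without one. In OTUB1_KD, 10 rose and 2 fell with a match, against 5 and 8 without. Of all tested genes, 49.5% rose and 38.7% fell in SFD@M, and 39.9% rose and 25.8% fell in OTUB1_KD. Whether a match bears on direction was not tested. Atp5k carries the same 3 motifs as Atp5l, and Atp5k fell in SFD@M while Atp5l rose. Capitals mark the matches, and the 10 capital letters in Cox6a1 hold overlapping matches to GCGCATGCG on both strands.
Atp5l (chr9:44920743-44920992, minus strand): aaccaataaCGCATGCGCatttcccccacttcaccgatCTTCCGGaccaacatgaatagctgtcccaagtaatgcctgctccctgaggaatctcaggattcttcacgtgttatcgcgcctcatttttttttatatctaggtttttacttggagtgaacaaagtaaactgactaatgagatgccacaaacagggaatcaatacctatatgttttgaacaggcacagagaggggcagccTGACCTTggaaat
Cox6a1 (chr5:115348959-115349208, minus strand): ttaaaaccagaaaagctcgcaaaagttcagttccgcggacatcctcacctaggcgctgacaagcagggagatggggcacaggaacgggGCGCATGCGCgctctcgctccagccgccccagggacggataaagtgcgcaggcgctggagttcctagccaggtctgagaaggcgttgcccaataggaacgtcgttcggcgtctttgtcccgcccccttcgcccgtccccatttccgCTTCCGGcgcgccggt
Atp5b (chr10:128083057-128083306, plus strand): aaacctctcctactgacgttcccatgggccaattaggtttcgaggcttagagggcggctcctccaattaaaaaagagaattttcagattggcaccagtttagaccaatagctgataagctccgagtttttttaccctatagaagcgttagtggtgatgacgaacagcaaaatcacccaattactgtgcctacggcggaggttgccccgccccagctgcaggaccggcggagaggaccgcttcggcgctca
Cox8b (chr7:140900447-140900696, minus strand): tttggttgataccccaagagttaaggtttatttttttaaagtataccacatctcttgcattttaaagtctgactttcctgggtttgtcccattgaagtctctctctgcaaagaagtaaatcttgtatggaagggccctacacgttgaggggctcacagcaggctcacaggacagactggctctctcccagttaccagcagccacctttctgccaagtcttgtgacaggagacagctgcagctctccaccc

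Of the 82 genes, 80 passed the filter on low counts in both comparisons. Ndufb4b had 0 counts in OTUB1_KD and NC and 3 each in SFD@M and Blank, and Cox8c, a testis form of COX8, had a single count in SFD@M and 0 in the other 3 groups. In OTUB1_KD, 18 genes rose, 13 fell and 49 were not called relative to NC, where 39.9% of all tested genes rose and 25.8% fell. The 3 libraries of each group did not overlap for 24 genes that were higher (43.9% of all genes) and 18 that were lower (35.2%). In SFD@M, 16 genes rose, 50 fell and 14 were not called relative to Blank, where 49.5% of all genes rose and 38.7% fell. Here 17 genes were higher without overlap (50.3% of all genes) and 51 were lower without overlap (39.8%). The median log2 fold change over the 80 genes was 0.11 in OTUB1_KD, against 0.16 over all genes, and -0.32 in SFD@M, against 0.23 over all genes. Set against those shares, rises were less frequent among the subunit genes in both comparisons (18 of 80 in OTUB1_KD and 16 of 80 in SFD@M), and falls were less frequent in OTUB1_KD (16.2%) and more frequent in SFD@M (62.5%).

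These splits move with the scaling. On log2(TPM + 1), where limma was used, 9 genes were called higher and 28 lower in OTUB1_KD, where 36.5% of all genes were called higher and 33.7% lower. In SFD@M, 9 were higher and 61 lower on that scale, where 43.9% of all genes were higher and 45.5% lower. The same scale put the median of all genes at -0.02 in OTUB1_KD and -0.03 in SFD@M, and that of the subunit genes at -0.19 and -0.60. In SFD@M the subunit median was thus below that of all genes on both scales. In OTUB1_KD it was also below, but on counts the gap was small and rested on single libraries: the medians of subunit and all genes were 0.19 and 0.18 without OTUB1_KD replicate 1, and -0.05 and 0.15 without replicate 3. The counts in OTUB1_KD also depended on single libraries: without NC replicate 1, 2 or 3 they were 8 higher and 7 lower, 7 higher and 5 lower, and 8 higher and 6 lower, while 35.0 to 35.1% of all genes were called higher and 17.5 to 17.9% lower. Without OTUB1_KD replicate 3 they were 18 higher and 25 lower, against 40.8% and 25.1% of all genes. Leaving out any 1 library of SFD@M or Blank gave 15 to 20 genes higher and 48 to 51 lower, against 48.03 to 50.1% and 36.5 to 38.9% of all genes.

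**Figure D1:**
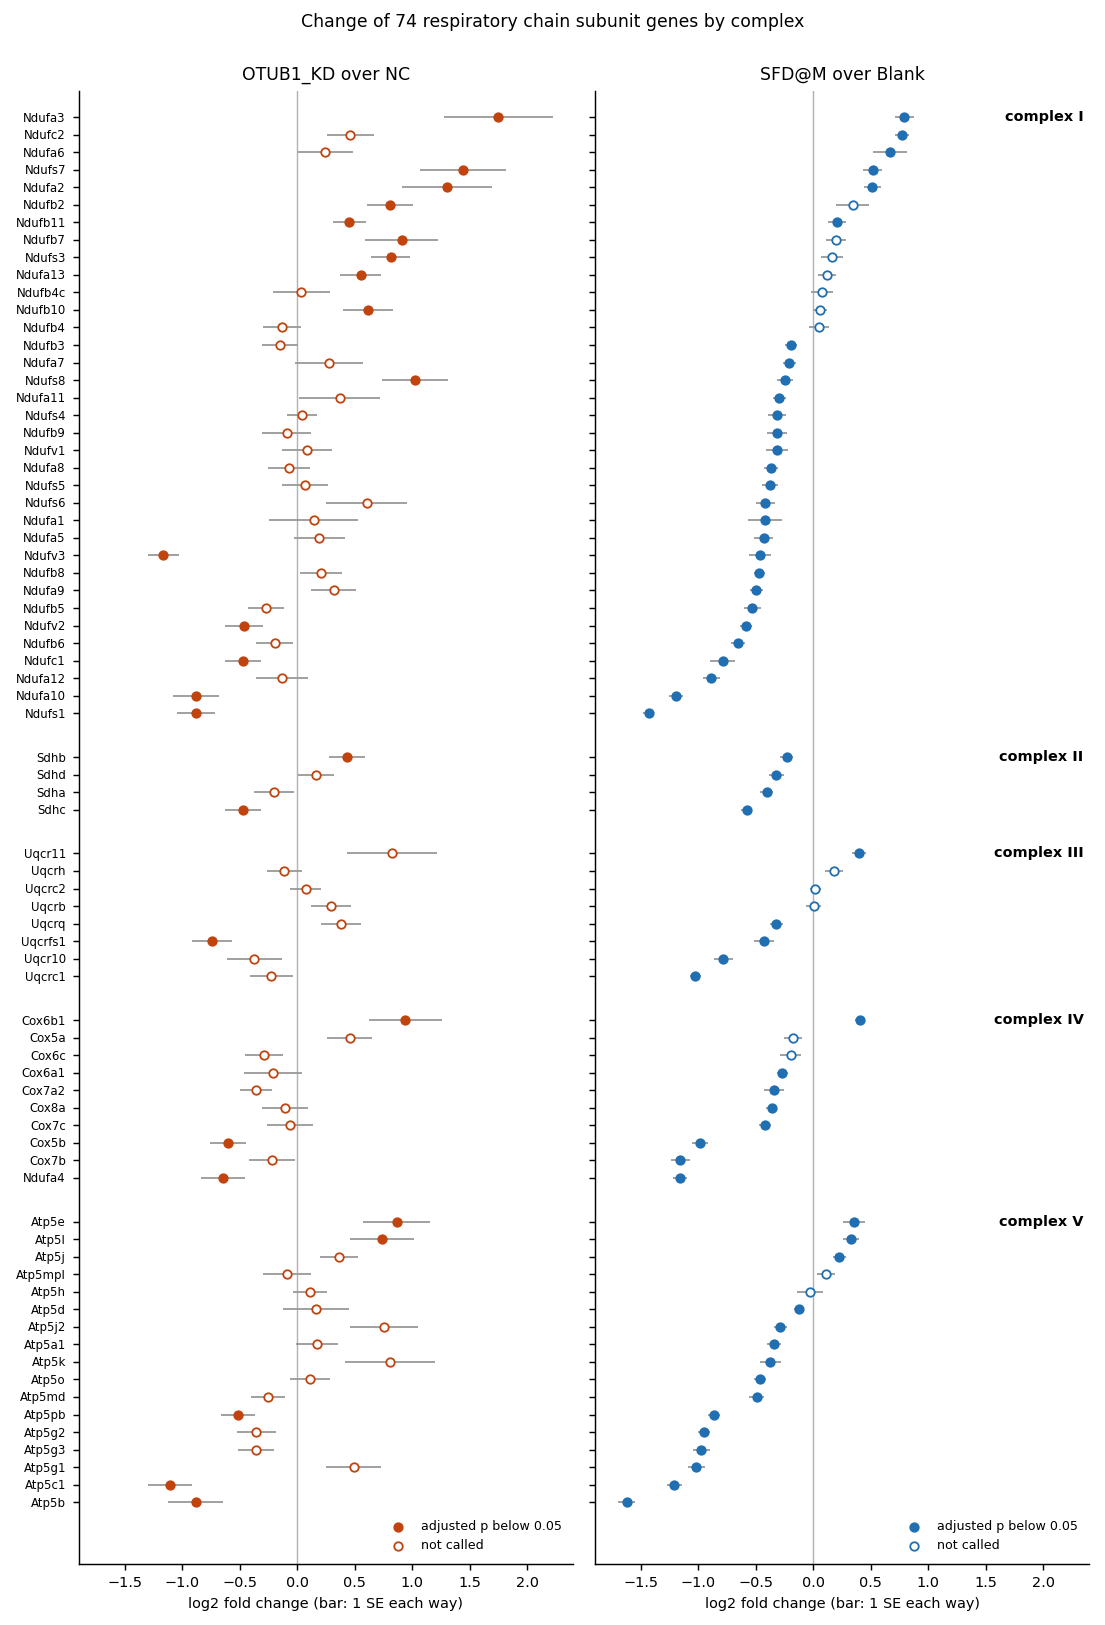
Log2 fold change of 74 tested genes other than the restricted isoforms, in rows by complex, for OTUB1_KD over NC (left) and SFD@M over Blank (right); bars show 1 SE each way and filled points an adjusted p below 0.05. Changes in SFD@M run from 0.79 for Ndufa3 to -1.62 for Atp5b, with Sdha to Sdhd all below 0, and the bars are longer for OTUB1_KD.

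Side by side, 11 genes were called higher in both comparisons: the complex I genes Ndufa2, Ndufa3, Ndufb11 and Ndufs7, the complex IV genes Cox6a2, Cox6b1, Cox6b2, Cox8b and Ndufa4l2, and the ATP synthase genes Atp5e and Atp5l. Another 13 were called lower in both, among them Ndufa10, Ndufc1, Ndufs1, Ndufv2 and Ndufv3 of complex I, Sdhc, Uqcrfs1, Cox5b and Ndufa4, and Atp5b, Atp5c1 and Atp5pb of complex V. Ndufs8 and Sdhb were called higher in OTUB1_KD and lower in SFD@M. A further 35 genes were called lower in SFD@M and not called in OTUB1_KD, and 9 were called in neither. Of all tested genes, 39.9% rose and 25.8% fell in OTUB1_KD, and 49.5% rose and 38.7% fell in SFD@M. The share of all genes called in both was not worked out, so these joint counts cannot be set against it. Cox6a2, Cox6b2, Cox8b and Ndufa4l2 were nearly absent from NC and Blank and passed the filter on low counts through the other groups. In simulated counts, where few genes changed, 10.1% of 2-fold changes were called for OTUB1_KD over NC and 73.7% for SFD@M over Blank. Far more genes were called in the data, so these shares may not carry over to it. A gene not called in OTUB1_KD may still have changed.

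Messenger levels within a complex were far from equal on TPM. On the length-corrected TPM scale, Cox7c, a small complex IV subunit, averaged 834 ± 7.93 TPM in OTUB1_KD, 1246 ± 50.7 in NC, 725 ± 24.2 in SFD@M and 1255 ± 25.1 in Blank (SD, n = 3 each, here and below). Atp5b, the catalytic beta subunit of ATP synthase, averaged 574 ± 164, 1187 ± 31.97, 415 ± 26.7 and 1543 ± 10.9 TPM in the same order of groups. Ndufa4 averaged 599 ± 46.9, 1277 ± 94.04, 580.4 ± 28.6 and 1653 ± 43.8 TPM. Cox6c and Atp5md, a small membrane subunit of ATP synthase, complete the 5 genes with the highest mean TPM, at 853 ± 79.6 TPM in SFD@M against 1245 ± 62.4 in Blank and 592 ± 14.8 TPM in SFD@M against 1114 ± 29.4 in Blank. Within complex II the 4 genes lay close together, from 96.8 TPM for Sdhb to 119 TPM for Sdhc in SFD@M and from 138 to 216 TPM for the same genes in Blank. Within complex I, the mean TPM of Ndufa3 was 42.1 times that of Ndufa11 in SFD@M and 22.1 times in Blank. On CPM, which carries no length correction, Ndufa3 and Ndufa11 averaged 39.4 and 30.3 in SFD@M, and 22.7 and 37.2 in Blank. The TPM ratio of these 2 genes thus rests largely on the length correction.

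The core subunits of complex I, which carry the flavin and the iron-sulfur clusters, split into falling and rising genes. Ndufs1, the large iron-sulfur subunit next to the NADH site, was at 71.9, 68.7 and 69.2 CPM in SFD@M against 187, 188 and 192 CPM in Blank (log2 fold change -1.43, SE 0.05, adjusted p = 6.53e-08), and at 94.04, 70.3 and 70.1 CPM in OTUB1_KD against 145, 146 and 139.8 CPM in NC (log2 fold change -0.88, SE 0.17, adjusted p = 0.00341). Neither comparison showed overlap. Ndufv2, another iron-sulfur subunit, also fell in both, by 0.59 on the log2 scale in SFD@M and by 0.46 in OTUB1_KD. In contrast, Ndufs7, the iron-sulfur subunit nearest to ubiquinone, was at 32.1, 27.95 and 31.6 CPM in SFD@M against 20.4, 21.4 and 22.3 CPM in Blank (log2 fold change 0.52, SE 0.08, adjusted p = 0.000489). In the knockdown experiment it was at 24.7, 36.8 and 71.5 CPM in OTUB1_KD against 16.2, 15.6 and 17.00 CPM in NC (log2 fold change 1.44, SE 0.38, adjusted p = 0.0131). All 3 libraries were above those of the control group each time, with replicate 3 of OTUB1_KD the highest. Ndufs8 and Ndufs3 rose in OTUB1_KD, with log2 fold changes of 1.03 and 0.81, against -0.25 (called) and 0.16 (not called) in SFD@M. Ndufv1, which binds NADH and flavin, was at -0.32 in SFD@M (called) and 0.08 in OTUB1_KD (not called). Of these 6 core genes, 1 rose and 4 fell in SFD@M, where 49.5% and 38.7% of all genes did. In OTUB1_KD, 3 of them rose and 2 fell, where 39.9% and 25.8% of all genes did.

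Accessory subunits surround this core and hold the arms of the enzyme together. Of the 29 tested, 5 rose (17.2%) and 18 fell (62.1%) in SFD@M, against 49.5% and 38.7% of all genes. In OTUB1_KD, 7 rose (24.1%) and 3 fell (10.3%), against 39.9% and 25.8% of all genes. The largest fall in SFD@M was that of Ndufa10, a membrane-arm subunit, at 54.9, 48.2 and 52.00 CPM in SFD@M against 115, 120.4 and 119.6 CPM in Blank (log2 fold change -1.19, SE 0.06, adjusted p = 6.75e-07). It was at 69.4, 42.7 and 53.99 CPM in OTUB1_KD against 103, 94.9 and 107 CPM in NC (log2 fold change -0.88, SE 0.20, adjusted p = 0.00731). Groups were apart in both comparisons. Ndufa12, bound to the matrix arm, fell in SFD@M (log2 fold change -0.89, SE 0.07, adjusted p = 8.75e-06) and was not called in OTUB1_KD (log2 fold change -0.13, adjusted p = 0.618). Ndufv3, an accessory subunit near the NADH site, had the lowest value of all 80 genes in OTUB1_KD, at 43.7, 38.9 and 38.4 CPM in OTUB1_KD against 84.5, 89.5 and 97.1 CPM in NC (log2 fold change -1.16, SE 0.14, adjusted p = 0.000386). In SFD@M its change was -0.47 (adjusted p = 0.00235).

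The largest rise among the accessory genes was that of Ndufa3, a small membrane subunit, at 27.4, 43.8 and 105 CPM in OTUB1_KD against 16.6, 18.3 and 17.4 CPM in NC (log2 fold change 1.75, SE 0.47, adjusted p = 0.0146). In the treatment experiment it was at 40.98, 36.96 and 40.2 CPM in SFD@M against 21.9, 24.8 and 21.5 CPM in Blank (log2 fold change 0.79, SE 0.08, adjusted p = 3.82e-05). The spread in OTUB1_KD came mostly from replicate 3, but replicates 1 and 2 also lay above every NC library. Ndufa2, of the NADH-oxidizing part, was at 29.2, 49.3 and 91.7 CPM in OTUB1_KD against 21.6, 23.98 and 23.4 CPM in NC (log2 fold change 1.303, adjusted p = 0.0226) and rose in SFD@M too (log2 fold change 0.51, SE 0.07, adjusted p = 0.000232). Ndufc2, a membrane-arm subunit, was at 82.3, 81.8 and 77.9 CPM in SFD@M against 46.3, 45.00 and 50.6 CPM in Blank (log2 fold change 0.77, SE 0.06, adjusted p = 9.27e-06) and was not called in OTUB1_KD (log2 fold change 0.46, adjusted p = 0.0823). Ndufa6, of the same family as the LYR-motif proteins, rose in SFD@M (log2 fold change 0.66, SE 0.15, adjusted p = 0.00356). The remaining called rises in OTUB1_KD, of Ndufa13, Ndufb2, Ndufb7, Ndufb10 and Ndufb11, ran from 0.46 to 0.91. Ndufb4, Ndufb4b and Ndufb4c are near-identical copies whose reads the counting may have split, so their values are uncertain; Ndufb4 and Ndufb4c were not called in either comparison.

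Complex II, succinate dehydrogenase, is encoded wholly in the nucleus and also serves the citric acid cycle. All 4 genes fell in SFD@M, where 38.7% of all genes did. Sdha, the flavin subunit, was at 234, 219.6 and 218 CPM in SFD@M against 283, 302 and 303 CPM in Blank (log2 fold change -0.41, SE 0.06, adjusted p = 0.000224). Sdhc, a membrane anchor, was at 80.4, 84.4 and 80.1 CPM in SFD@M against 120.3, 125 and 121 CPM in Blank (log2 fold change -0.58, SE 0.05, adjusted p = 9.17e-06). Sdhd, the other anchor, and Sdhb, the iron-sulfur subunit, had smaller falls of 0.32 and 0.23. No library of SFD@M reached any Blank library for these genes. In OTUB1_KD, Sdhc fell (log2 fold change -0.47, SE 0.16, adjusted p = 0.0327) and Sdhb rose, at 64.4, 61.8 and 81.7 CPM in OTUB1_KD against 53.6, 48.6 and 51.9 CPM in NC (log2 fold change 0.43, SE 0.16, adjusted p = 0.0442), while Sdha (-0.20) and Sdhd (0.16) were not called.

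Complex III had the smallest share of called genes in both comparisons: 1 of 8 rose and 4 fell in SFD@M, and none rose and 1 fell in OTUB1_KD. Uqcrc1, a core protein, was at 83.6, 82.5 and 79.3 CPM in SFD@M against 166, 168 and 166 CPM in Blank (log2 fold change -1.03, SE 0.04, adjusted p = 3e-07), while its partner Uqcrc2 was at 115, 109 and 115 CPM in SFD@M against 114, 109 and 112 CPM in Blank (log2 fold change 0.02, adjusted p = 0.732). The first pair of groups was far apart and the second overlapped. Uqcrfs1, the Rieske iron-sulfur protein, fell in both, at 74.4, 77.96 and 54.3 CPM in OTUB1_KD against 124, 112 and 110.1 CPM in NC (log2 fold change -0.74, SE 0.18, adjusted p = 0.00905) and with a change of -0.43 in SFD@M (adjusted p = 0.00217). Among the small subunits, Uqcr10 fell (log2 fold change -0.78, SE 0.09, adjusted p = 5.58e-05) and Uqcr11 rose (log2 fold change 0.40, SE 0.06, adjusted p = 0.000567) in SFD@M. Uqcrb and Uqcrh, the hinge protein, were not called in SFD@M (0.00 and 0.18). On the log2(TPM + 1) scale Uqcrb and Uqcrc2 were called lower there, at -0.33 and -0.25. In OTUB1_KD, Uqcr11 had a log2 fold change of 0.82 but ranged from 27.3 to 84.9 CPM over its 3 libraries, against 26.7 to 30.3 CPM in NC, and was not called.

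Of the complex IV genes that most cells use, Ndufa4 and Cox5b fell in both comparisons. Ndufa4 was at 89.8, 85.2 and 98.00 CPM in SFD@M against 199.7, 202 and 209 CPM in Blank (log2 fold change -1.16, SE 0.06, adjusted p = 9.11e-07), and at 79.1, 105 and 121 CPM in OTUB1_KD against 148, 173 and 157 CPM in NC (log2 fold change -0.64, SE 0.19, adjusted p = 0.0229). Cox5b, a zinc-binding subunit, was at 63.8, 55.2 and 57.6 CPM in SFD@M against 123, 109 and 118 CPM in Blank (log2 fold change -0.99, SE 0.07, adjusted p = 5.21e-06), and fell by 0.60 in OTUB1_KD (adjusted p = 0.0118). Cox7b fell in SFD@M (log2 fold change -1.16, SE 0.08, adjusted p = 4.79e-06) and was not called in OTUB1_KD (-0.22). Cox6a1, Cox7a2, Cox7c and Cox8a fell by 0.27 to 0.42 in SFD@M, and in OTUB1_KD none of these 4 was called. Cox6b1, which sits on the outer face of the enzyme, was the exception, at 98.9, 95.8 and 96.8 CPM in SFD@M against 73.9, 72.99 and 73.9 CPM in Blank (log2 fold change 0.40, SE 0.04, adjusted p = 5.55e-05), and at 87.02, 116 and 211 CPM in OTUB1_KD against 69.9, 69.98 and 75.4 CPM in NC (log2 fold change 0.94, SE 0.32, adjusted p = 0.0354). Cox6c was not called in either comparison, and Cox4i1, the common form of subunit 4 outside the symbol rule, was at 261, 217 and 231 CPM in SFD@M against 239, 235 and 241 CPM in Blank (-0.01, not called).

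The tissue-restricted forms behaved unlike the rest of complex IV. Cox6a2, the heart and skeletal muscle form of subunit 6A, was at 7.18, 14.1 and 9.76 CPM in OTUB1_KD against 0, 0.0609 and 0.0607 CPM in NC, where NC held 2 counts in all, a ratio of 263 (95% counting interval 72.9 to 2174). In the treatment experiment it was at 20.3, 10.9 and 13.1 CPM in SFD@M against 0.176, 0.236 and 0.177 CPM in Blank (log2 fold change 6.18). Cox8b, the muscle form of COX8, had 88 counts in OTUB1_KD and 0 in NC, so it was at least 27.6-fold higher, and 93 in SFD@M and 0 in Blank, at least 31.4-fold higher, taking 3 counts over a group as the floor. Its level stayed low, at 1.503, 2.56 and 0.831 CPM in OTUB1_KD and 2.302, 1.87 and 1.22 CPM in SFD@M. Cox6b2, the testis form of subunit 6B, was at 3.28, 10.2 and 13.2 CPM in OTUB1_KD against 0, 0.122 and 0.0607 CPM in NC and at 6.101, 8.48 and 9.03 CPM in SFD@M against 0, 0.0591 and 0.059 CPM in Blank, with 3 counts in NC and 2 in Blank. Those counts give ratios of 151 (95% counting interval 51.6 to 731) and 205 (56.9 to 1696). Ndufa4l2, a Ndufa4 paralog known as a hypoxia-inducible gene, was at 11.4, 24.3 and 17.1 CPM in OTUB1_KD against 0.128, 0.304 and 0.121 CPM in NC (log2 fold change 6.52). It was at 15.1, 18.9 and 16.8 CPM in SFD@M against 0, 0.177 and 0 CPM in Blank, a ratio of 295 on 3 Blank counts (101 to 1431). Cox7a1, the muscle form of subunit 7A, was at 2.13, 1.403 and 3.03 CPM in SFD@M against 0.411, 0.177 and 0.236 CPM in Blank (log2 fold change 2.96). It overlapped NC in OTUB1_KD, at 1.45, 2.61 and 0.942 CPM in OTUB1_KD against 1.21, 0.487 and 0.668 CPM in NC (log2 fold change 1.08, SE 0.53, adjusted p = 0.11). Genes this low in NC or Blank passed the filter on low counts through the other group, so no p-value is given for their rises.

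These forms remained the minor partner of each pair. On the TPM scale Cox6a2 made up 6.08, 10.5 and 4.87% of the Cox6a pair in OTUB1_KD against 0, 0.0352 and 0.0338% in NC, and 14.5, 8.71 and 10.1% in SFD@M against 0.127, 0.165 and 0.119% in Blank. Ndufa4l2 made up 4.89, 6.24 and 4.96% of its pair in SFD@M against 0, 0.0259 and 0% in Blank. Cox4i2, the oxygen-linked form of subunit 4 outside the rule, was at 12.6, 32.7 and 41.96 CPM in OTUB1_KD and 29.3, 30.7 and 27.2 CPM in SFD@M with 0 counts in NC and Blank, at least 494-fold and at least 506-fold higher, and it took 10.4, 12.8 and 10.9% of the Cox4i pair in SFD@M. The shares of Atp5g1, Atp5g2 and Atp5g3, which encode 1 mature c-ring protein, overlapped between SFD@M and Blank: Atp5g2 held 37.9, 40.1 and 35.8% in SFD@M and 39.1, 36.8 and 36.7% in Blank. For Atp5g1 the share was 11.4, 11.5 and 15.8% in OTUB1_KD and 7.69, 7.28 and 7.71% in NC.

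Cardiac muscle markers were also higher in OTUB1_KD and in SFD@M. The 10 listed summed to 94.5 to 637 CPM in OTUB1_KD and 2.55 to 3.15 CPM in NC, and to 314 to 629.8 CPM in SFD@M and 0.696 to 1.34 CPM in Blank, with 3 of 10 at 0 in every NC library and 5 of 10 in every Blank library. Myh6, a cardiac myosin, was at 58.2, 162 and 10.98 CPM in OTUB1_KD against 0, 0.0609 and 0 CPM in NC, and at 99.1, 74.4 and 104 CPM in SFD@M against 0, 0.0591 and 0 CPM in Blank. Within OTUB1_KD, replicate 2 was highest for Myh6, Cox6a2, Cox7a1 and Cox8b and also for Ndufa4l2, which is no muscle form, and replicate 3 was highest for Cox6b2. The lowest library was replicate 1 for Cox6a2 and replicate 3 for Myh6. Summed skeletal muscle markers were at 122, 15.3 and 3.55 CPM in OTUB1_KD against 2.38 to 2.67 CPM in NC, and at 3.05 to 11.4 CPM in SFD@M against 1.69 to 2.26 CPM in Blank, so the lowest libraries lay close to the control groups. Summed brown fat markers were at 4.55 to 9.42 CPM in OTUB1_KD against 0.178 to 0.374 CPM in NC, and at 9.36 to 10.95 CPM in SFD@M against 0.058 to 0.35 CPM in Blank. The part of these cells in the rise of the muscle forms was not tested.

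**Figure D2:**
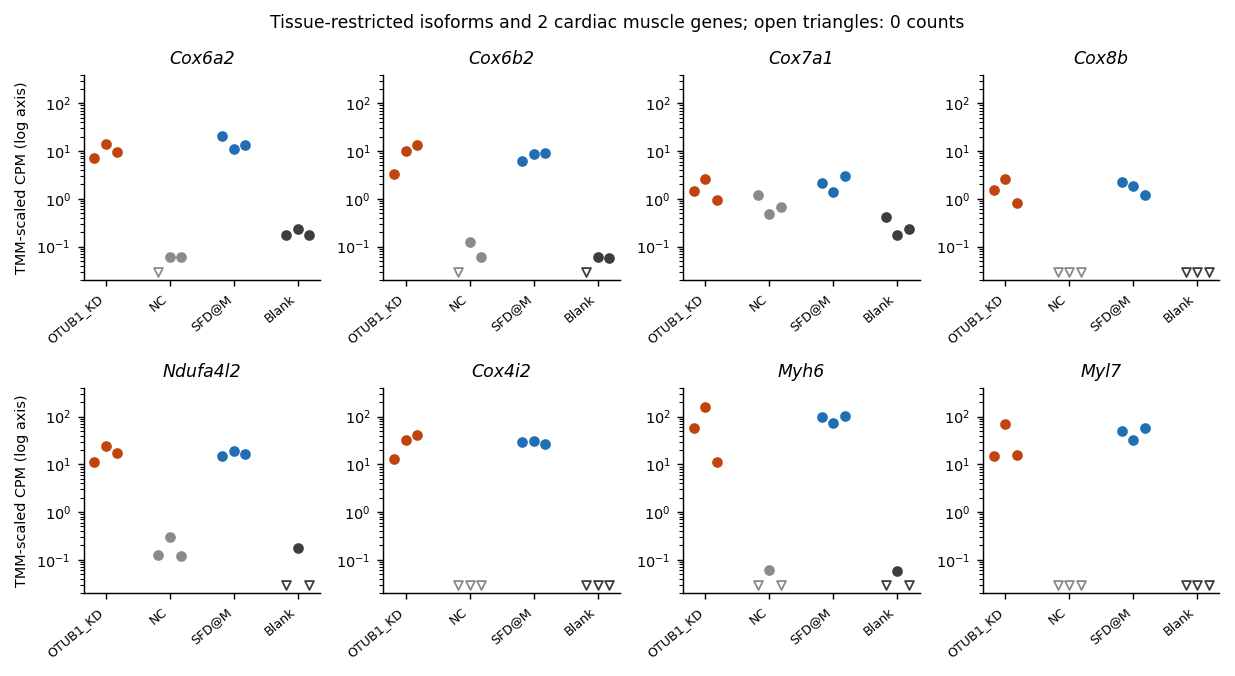
TMM-scaled CPM, on a log axis, of 6 tissue-restricted subunit isoforms and of the cardiac genes Myh6 and Myl7 in each of 3 libraries of OTUB1_KD, NC, SFD@M and Blank; open triangles at the foot of the axis mark 0 counts. Cox8b, Cox4i2 and Myl7 have 0 counts in every NC and Blank library, and Cox7a1 alone overlaps between OTUB1_KD and NC.

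The largest fall in SFD@M was that of an ATP synthase gene. Of the 17 ATP synthase genes, 3 rose (17.6%) and 12 fell (70.6%) in SFD@M, against 49.5% and 38.7% of all genes. In OTUB1_KD, 2 rose (11.8%) and 3 fell (17.6%), against 39.9% and 25.8% of all genes. In the catalytic head, Atp5b was at 485, 494 and 549 CPM in SFD@M against 1554, 1591 and 1569.6 CPM in Blank (log2 fold change -1.62, SE 0.07, adjusted p = 3e-07), and at 824, 489 and 731 CPM in OTUB1_KD against 1218, 1262 and 1288 CPM in NC (log2 fold change -0.88, SE 0.24, adjusted p = 0.0146). Atp5c1, the gamma shaft inside the head, was at 164, 140.3 and 158 CPM in SFD@M against 356, 353 and 359.6 CPM in Blank (log2 fold change -1.21, SE 0.07, adjusted p = 1.17e-06), and at 219, 164 and 155 CPM in OTUB1_KD against 387, 371 and 401 CPM in NC (log2 fold change -1.11, SE 0.19, adjusted p = 0.00222). For both genes every OTUB1_KD and SFD@M library lay below every library of its control group. Atp5a1, the alpha subunit that pairs with beta in the head, fell by 0.34 in SFD@M and was not called in OTUB1_KD (0.17). Atp5e, the small epsilon subunit, rose in both, at 57.7, 52.5 and 65.5 CPM in SFD@M against 48.5, 46.6 and 42.2 CPM in Blank (log2 fold change 0.35, SE 0.10, adjusted p = 0.00827), and at 50.2, 71.6 and 114 CPM in OTUB1_KD against 44.4, 43.5 and 41.4 CPM in NC (log2 fold change 0.87, SE 0.29, adjusted p = 0.0337).

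The 3 c-ring genes all fell in SFD@M by similar amounts. Atp5g1 was at 36.9, 34.03 and 40.6 CPM in SFD@M against 73.8, 73.8 and 78.3 CPM in Blank (log2 fold change -1.02, SE 0.08, adjusted p = 5.46e-06), and Atp5g2 and Atp5g3 changed by -0.95 and -0.98. None of the 3 was called in OTUB1_KD, where Atp5g1 had 0.49 and Atp5g2 and Atp5g3 had -0.35 and -0.36. In the peripheral stalk, which keeps the head from turning, Atp5pb fell in both (log2 fold change -0.87, SE 0.05, adjusted p = 1.58e-06 in SFD@M, log2 fold change -0.51, SE 0.15, adjusted p = 0.0195 in OTUB1_KD), Atp5o fell and Atp5j rose in SFD@M (-0.46 and 0.22), and Atp5h was called in neither. Of the small membrane subunits, Atp5l rose in both, at 145, 121 and 130.4 CPM in SFD@M against 107, 106 and 104 CPM in Blank (log2 fold change 0.33, SE 0.07, adjusted p = 0.00296), and at 103, 149 and 221 CPM in OTUB1_KD against 90.3, 98.2 and 95.3 CPM in NC (log2 fold change 0.74, SE 0.28, adjusted p = 0.0498). Atp5j2, Atp5k and Atp5md fell in SFD@M, by 0.29 to 0.49, and were not called in OTUB1_KD. On log2(TPM + 1) the changes of Atp5e, Atp5l and Atp5j in SFD@M were -0.03, -0.02 and -0.14, so their direction there rests on the scaling.

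Summed over the genes of a complex, the mean TPM levels were lower in OTUB1_KD than in NC and in SFD@M than in Blank. In SFD@M complex V summed to 6587 ± 116 TPM against 11343 ± 70.2 TPM in Blank, 58.1% of the Blank level. Complexes I, II, III and IV were at 72.2%, 62.5%, 70.9% and 60.4% of Blank. In OTUB1_KD complex V summed to 7679 ± 252 TPM against 9835 ± 113 TPM in NC (78.1%), and complexes I to IV were at 89.8%, 82.9%, 74.5% and 70.8% of NC. Complex I was the 1 that overlapped, at 5456, 5789.6 and 6953 TPM in OTUB1_KD against 6631, 6826 and 6811 TPM in NC, with replicate 3 of OTUB1_KD above every NC library. TPM is a share of a fixed total, and 1 transcript of airway cells weighs on it: Scgb1a1 took 8.81 to 19.5% of all TPM in OTUB1_KD and 23.3 to 23.8% in SFD@M, and almost none in NC and Blank. With Scgb1a1 left out of the total, a setting chosen after seeing the data, complexes I to V stood at 94.5%, 81.7%, 92.8%, 79.03% and 75.99% of Blank in SFD@M. The same sums were 103%, 94.6%, 85.5%, 81.2% and 89.4% of NC in OTUB1_KD. In SFD@M each complex lay below Blank without overlap on either total. In OTUB1_KD complex I overlapped NC on either total and complex II once Scgb1a1 was left out, and on TMM-scaled CPM complex V alone lay apart from NC.

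**Figure D3:**
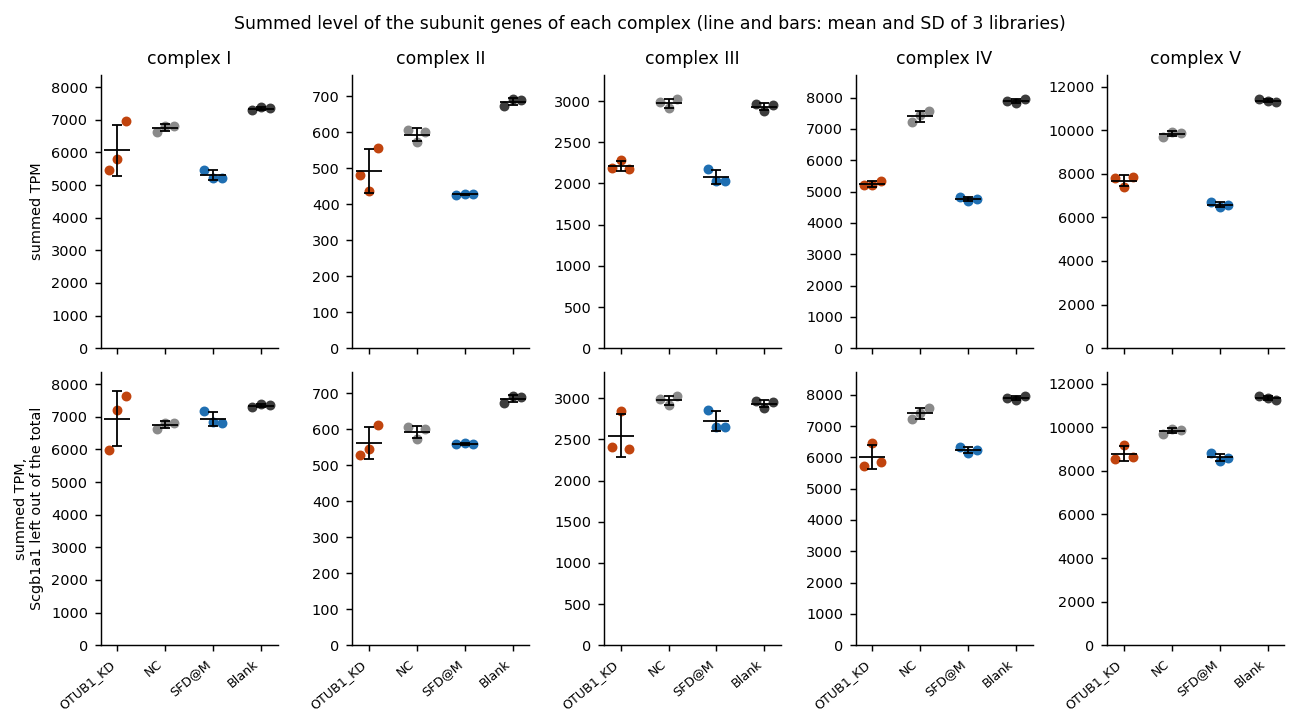
Summed TPM of the subunit genes of complexes I to V in each library of OTUB1_KD, NC, SFD@M and Blank, with Scgb1a1 in the total (top) and left out of it (bottom); points are libraries, and lines with bars the mean and SD of 3. The gap between SFD@M and Blank for complex V, 58.1% of Blank in the top row, narrows to 76.0% in the bottom row.

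The OTUB1_KD libraries differed among themselves more than those of any other group. The median coefficient of variation over the 80 genes was 23.1% in OTUB1_KD and 4.71% in NC, and 7.43% in SFD@M and 2.97% in Blank. Over all tested genes it was higher in each group, at 27.8%, 4.79%, 10.6% and 4.39% in the same order. Replicate 3 was the highest of its group for 54 of the 80 genes (67.5%), while it was the highest for 28.6% of all tested genes. Against the NC mean, the median over the 75 genes other than the restricted forms was -0.23 in replicate 1, 0.01 in replicate 2 and 0.26 in replicate 3, with 26, 39 and 51 genes above NC. The 3 SFD@M libraries had medians of -0.29, -0.39 and -0.31 against the Blank mean. Across all 14338 genes with a known sequence, the deviation of OTUB1_KD replicate 3 from its group rose with GC content (Spearman rho 0.592, a description across genes, which are not independent); over the 77 subunit genes with a value it was 0.279. Whether GC content has a part in the higher subunit levels of that library was not tested.

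**Figure D4:**
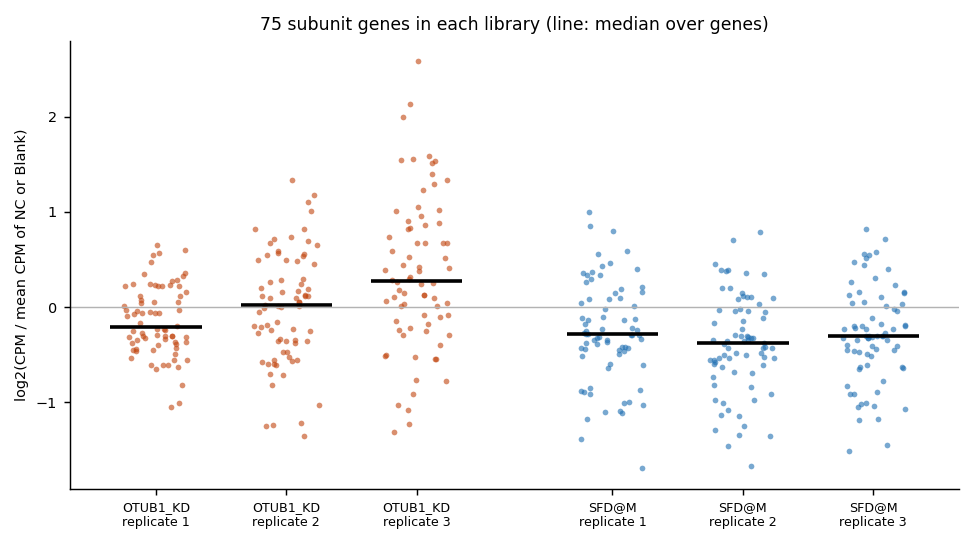
Log2 ratio of each of 74 subunit genes to the mean of NC (for OTUB1_KD) or Blank (for SFD@M), 1 column of points per library, with the median over the drawn genes as a line. The 75 of the title includes the 1 gene not reported here, which is not drawn. Over all 75 genes, medians are -0.23, 0.01 and 0.26 in the OTUB1_KD libraries and between -0.39 and -0.29 in SFD@M.

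The changes of the 2 experiments were compared by the contrast of SFD@M over Blank minus OTUB1_KD over NC, in 1 fit of all 12 libraries. Of the 80 genes, 14 had a lower change in SFD@M (10.8% of all genes did) and 1, Ndufv3, a higher one (12.4% of all genes). The median difference over the 80 genes was -0.38, against 0.07 over all genes. Atp5g1 showed the largest, at 48.5, 43.6 and 80.05 CPM in OTUB1_KD and 42.6, 40.3 and 41.3 CPM in NC, and 36.7, 33.9 and 40.4 CPM in SFD@M and 72.9, 73.05 and 77.7 CPM in Blank (difference -1.48, SE 0.27, adjusted p = 0.00473). Its control groups were themselves unlike, with Blank near the highest OTUB1_KD library. Ndufv3 was at 44.2, 38.01 and 38.7 CPM in OTUB1_KD and 85.8, 90.6 and 98.8 CPM in NC, and 44.8, 36.9 and 34.5 CPM in SFD@M and 53.95, 52.9 and 52.7 CPM in Blank (difference 0.73, adjusted p = 0.0112). Its levels overlapped between OTUB1_KD and SFD@M and lay apart in NC and Blank. Which library was left out decided this count: 31 genes had a lower change without OTUB1_KD replicate 1, 26 without replicate 2 and 16 without replicate 3, where 12.9%, 18.7% and 11.9% of all genes did. The count was 4 to 9 without 1 library of SFD@M and 2 to 5 without 1 of NC or Blank, where 6.21 to 7.37% and 5.59 to 5.99% of all genes had a lower change.

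**Figure D5:**
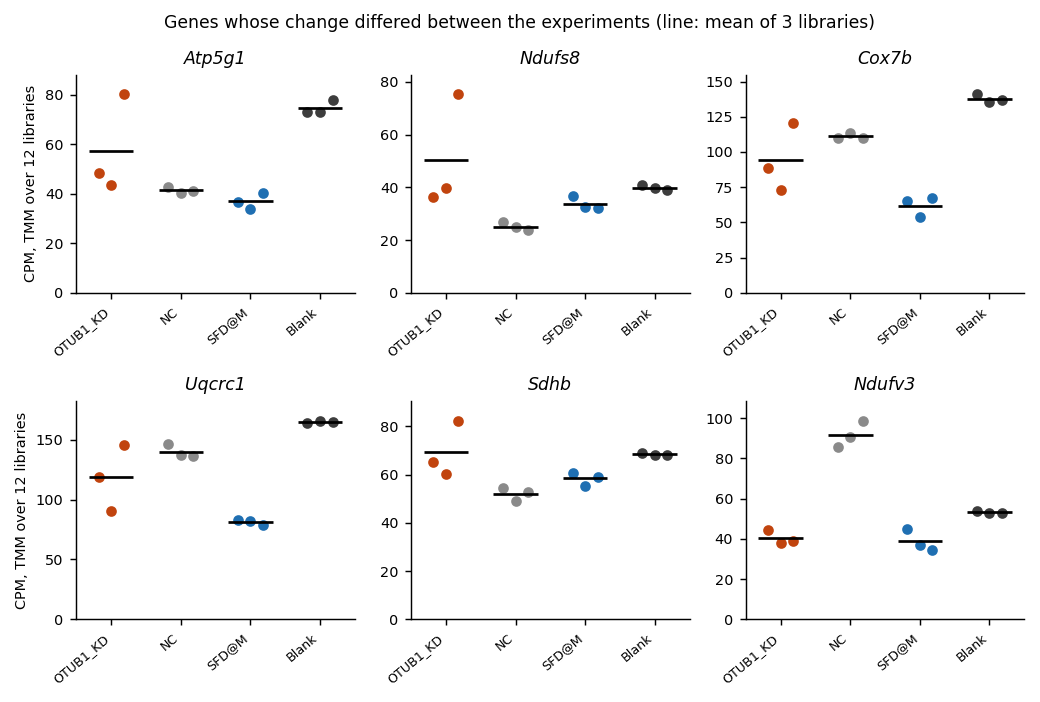
CPM, scaled by TMM over all 12 libraries, of 6 genes whose change differed between the experiments, for OTUB1_KD, NC, SFD@M and Blank; points are libraries and lines the mean of 3. For Atp5g1, NC (40.3 to 42.6 CPM) lies below Blank (72.9 to 77.7 CPM), and for Ndufv3 NC (85.8 to 98.8 CPM) lies above Blank (52.7 to 54.0 CPM).

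Of the 82 genes, 37 were listed with more than 1 transcript model. The split of TPM between models differed between groups in some of them. For Atp5c1, a predicted model held 29.4, 19.2 and 21.6% of the gene's TPM in SFD@M against 5.19, 5.31 and 4.21% in Blank. It held 7.43, 17.5 and 12.2% in OTUB1_KD against 3.91, 3.005 and 4.44% in NC. The minor curated transcript of Ndufv3 held 18.9, 15.7 and 12.96% in SFD@M against 5.21, 5.52 and 5.504% in Blank, and 10.5, 15.1 and 11.3% in OTUB1_KD against 5.36, 5.44 and 5.64% in NC. For Ndufs1 the main transcript held 48.03, 49.96 and 58.5% in SFD@M against 36.5, 38.9 and 36.8% in Blank, and 48.9, 60.4 and 47.6% in OTUB1_KD against 37.2, 35.9 and 37.3% in NC. Groups did not overlap in any of these 6 comparisons, which were chosen after their values were seen and carry no test. The shares are estimates that the counting made from reads shared between transcripts.

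Other genes of oxidative metabolism were described by lists chosen with earlier results known. Beside them, 49.5% of all genes rose and 38.7% fell in SFD@M (median log2 fold change 0.23). In OTUB1_KD, 39.9% of all genes rose and 25.8% fell (median 0.16). Of 17 genes of mitochondrial import, membranes and citrate synthase, none rose and 16 fell (94.1%) in SFD@M (median log2 fold change -1.12). In OTUB1_KD none of the 17 rose and 10 fell (58.8%, median -0.56). Immt, which shapes the cristae, and the import receptor Tomm22 fell by 2.73 and 1.82 in SFD@M, and Tomm20, another import receptor, fell by 1.59 in OTUB1_KD. Cs, citrate synthase, was at 154, 159 and 164 CPM in SFD@M against 492, 514 and 509 CPM in Blank (log2 fold change -1.67, SE 0.05, adjusted p = 7.19e-08), and at 262, 159 and 182 CPM in OTUB1_KD against 534, 567 and 558 CPM in NC (log2 fold change -1.46, SE 0.23, adjusted p = 0.00144). Of 17 citric acid cycle genes, 3 rose (17.6%) and 13 fell (76.5%) in SFD@M (median -0.61). None of them rose and 6 fell (35.3%) in OTUB1_KD (median -0.29). Ogdh, of the oxoglutarate dehydrogenase complex, and Idh2, the NADP-linked isocitrate dehydrogenase, rose in SFD@M (0.87 and 0.28), and Dld, a subunit shared by several dehydrogenases, fell (-1.98). Suclg1, a subunit of succinyl-CoA ligase, fell in OTUB1_KD (-1.14).

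Assembly factors, which build the complexes without staying in them, were mixed. In SFD@M, 12 of 53 rose (22.6%) and 35 fell (66.0%, median -0.49), against 49.5% and 38.7% of all genes. In OTUB1_KD, 12 rose (22.6%) and 16 fell (30.2%, median -0.29), against 39.9% and 25.8% of all genes. Uqcc3, a complex III assembly factor, rose in both (1.53 in SFD@M and 2.22 in OTUB1_KD), and so did Ndufaf3, for complex I, in SFD@M (1.91) and Sdhaf1, for complex II, in OTUB1_KD (1.51). Uqcc2 and Coa5, for complexes III and IV, fell by 2.01 and 1.25 in SFD@M, and Sdhaf3 and Nubpl, which acts on the iron-sulfur clusters of complex I, fell by 1.55 and 1.65 in OTUB1_KD. Of the factors that set mitochondrial gene expression, 6 of 16 rose (37.5%) and 9 fell (56.25%) in SFD@M. In OTUB1_KD, 3 of 15 rose (20%) and 5 fell (33.3%), beside the same shares of all genes. Tfam, which packs mitochondrial DNA, fell in both (-1.17 in SFD@M and -0.99 in OTUB1_KD), and Polg, the mitochondrial DNA polymerase, rose in both (0.82 in SFD@M and 0.62 in OTUB1_KD). Pprc1, a coactivator, and Tfb2m, a mitochondrial transcription factor, fell in SFD@M (-2.09 and -1.08), and Yy1 fell in OTUB1_KD (-0.97). Ppargc1a, the coactivator known for driving respiratory genes, was at 6.91, 5.79 and 6.75 CPM in SFD@M against 0.411, 0.295 and 0.413 CPM in Blank (log2 fold change 4.09). It was at 3.06, 4.56 and 1.39 CPM in OTUB1_KD against 1.34, 1.22 and 1.700 CPM in NC (log2 fold change 1.08, SE 0.47, adjusted p = 0.0816, not called). Its relative Ppargc1b was at 5.12, 6.06 and 3.94 CPM in OTUB1_KD against 0, 0.0609 and 0.0607 CPM in NC (log2 fold change 6.703). Ppargc1a in Blank and Ppargc1b in NC were near the floor. Each passed the filter on low counts through the other group, so no p-value is given for these rises.

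Further genes of the chain fell outside the rule. Of 11 tested, 2 rose (18.2%) and 5 fell (45.5%) in SFD@M, against 49.5% and 38.7% of all genes. In OTUB1_KD, 1 rose (9.09%) and 3 fell (27.3%), against 39.9% and 25.8% of all genes. Cycs, cytochrome c, was at 96.5, 111 and 121 CPM in SFD@M against 245, 252 and 249 CPM in Blank (log2 fold change -1.18, SE 0.08, adjusted p = 3.7e-06) and was not called in OTUB1_KD (-0.27). Cox7a2l, which joins complexes III and IV, fell in OTUB1_KD, at 212, 179.6 and 188 CPM in OTUB1_KD against 424, 415 and 412 CPM in NC (log2 fold change -1.11, SE 0.16, adjusted p = 0.000901), and was not called in SFD@M (-0.14). Nnt, the nicotinamide nucleotide transhydrogenase of the inner membrane, was at 21.5, 25.03 and 25.2 CPM in SFD@M against 146, 151 and 149.5 CPM in Blank (log2 fold change -2.63, SE 0.07, adjusted p = 3.37e-08), and at 49.2, 26.7 and 31.2 CPM in OTUB1_KD against 137, 134 and 133 CPM in NC (log2 fold change -1.91, SE 0.24, adjusted p = 0.000604). Higd2a rose and Higd1a fell in SFD@M (0.51 and -0.97); both are small inner-membrane proteins. Transcripts of the mitochondrial genome were not analysed here.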

How the data were processed

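Messenger RNA enriched with oligo(dT) from 12 libraries was sequenced, per the labels' protocols. The authors deposited 1 table of 70659 transcripts with, per the file headers, normalized read counts, FPKM, TPM and estimated read counts (expected counts). Of the tools, GRCm39 as build, DESeq2 1.4.5, RSEM 1.3.1 and Bowtie2 are listed in the submitters' processing notes. How strand was handled is not given in the sources used here, and overlapping or antisense genes cannot be told apart. Deposited TPM and FPKM were used as they stand, on a log2 scale with a pseudocount of 1 or 0.1, in alternatives only. Normalized counts (a signal, as deposited) were each a whole number times 1 factor per library for 100% of values within a tolerance of 0.001, and these recovered reads entered an added alternative.

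Expected counts were summed over Entrez genes and rounded. Symbols came from RefSeq (GRCm38.p6) for 19155 of 19212 genes; the 57 unnamed took up to 0.342% of any library. No other per-sample column was left aside. Samples were grouped by their titles, and Blank titles carry codes that begin with KD. Each comparison of 3 against 3 libraries used edgeR 4.0.16 in R 4.3.3: filterByExpr, TMM, robust quasi-likelihood test, Benjamini-Hochberg adjustment over all genes tested. SE is the absolute log2 fold change divided by the root of F, an approximation. Alternatives used limma 3.58.1 and DESeq2 1.42.0. Totals were 16062806 to 18028828 counts per library. Intervals are 95% counting intervals and, like the floor of 3 counts, cover counting error only, since PCR copies cannot be told from molecules here. The tests were tried on simulated counts in which 96 to 100 genes were set to each fold change. Changes of 2-fold were called for 10.1% of them in OTUB1_KD over NC, 73.7% in SFD@M over Blank and 12.5% in the difference. Changes of 4-fold were called for 73.5%, 96.0% and 64.0%. False calls were 4 of 86, 15 of 183 and 8 of 84. Far more genes were called in the data, so these shares may not carry over to it.

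The genes and lists were chosen with earlier results of these data known. In each complex and comparison the 3 largest and 3 smallest fold changes were named (2 and 2 where under 8 genes were tested), with all Sdh genes, the isoform pairs, untested genes, genes called in the difference of the changes and the 5 highest in mean TPM; of other lists, the 2 smallest p in each direction, and Cox4i1, Cycs, Ppargc1a and Tfam. Transcript splits and a few further genes were named after their values were seen. The values of 1 gene are not reported here, though it stays in the counts and medians over all subunit genes.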

Additional observations from a re-analysis of the deposited data

Results flagged for a closer look

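Each gene here had a change in SFD@M over Blank that differed from its change in OTUB1_KD over NC (edgeR quasi-likelihood contrast over 12 libraries, adjusted p under 0.05), and values are the first log2 change minus the second. In ATP synthase the c-ring genes differed by -1.48 (Atp5g1), -0.57 (Atp5g2) and -0.59 (Atp5g3). Atp5j2, a small membrane subunit, differed by -1.02 and Atp5o, of the stalk, by -0.55. In complex I, Ndufs8 differed by -1.25, from a rise in OTUB1_KD and a fall in SFD@M, and Ndufa9 by -0.79, Ndufb8 by -0.65, Ndufs3 by -0.62 and Ndufs1 by -0.53. Sdhb of complex II, which also rose in OTUB1_KD and fell in SFD@M, differed by -0.64. Uqcrc1 and Uqcrq of complex III differed by -0.78 and -0.68, and Cox7b of complex IV by -0.91. Ndufv3 was the exception in sign, with a difference of 0.73. The number of such genes depended on single libraries, from 2 to 31 with a lower change when 1 library was left out. Of all genes, 5.59 to 18.7% then had a lower change.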

How the results depend on the processing

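Under DESeq2 size factors, upper-quartile factors, total counts, no filter or 1 CPM in 3 libraries, limma-voom and the recovered whole reads, the counts of subunit genes called stayed within 1.5 times those reported; the median of SFD@M over Blank was -0.25 with DESeq2 size factors and with DESeq2's Wald test. With limma on log2(TPM + 1) and on log2(TPM + 0.1), OTUB1_KD over NC gave 9 and 10 genes higher, 28 and 28 lower and medians of -0.19 and -0.19, and SFD@M over Blank gave 9 and 9 higher and medians of -0.60 and -0.60. Of all genes, 36.5% and 36.8% were higher and 33.7% and 33.6% lower in OTUB1_KD, and 43.9% and 44.0% were higher in SFD@M. On these scales the changes in SFD@M turned round for Atp5e (-0.0329 and -0.0329), Atp5j (-0.14 and -0.14), Atp5l (-0.0207 and -0.0207), Uqcrb (-0.33 and -0.33) and Uqcrc2 (-0.25 and -0.25), of which Atp5e, Atp5j and Atp5l were called higher on counts. With Scgb1a1 left out of TPM, 20 genes were lower in OTUB1_KD (25%, against 26.7% of all genes) and the median in SFD@M was -0.21. The 12 libraries in 1 fit gave 7 higher in SFD@M (8.75%, against 47.2% of all genes). For the difference between the experiments, genes with a lower change numbered 23 with DESeq2's Wald test, 27 on both TPM scales and 22 on log2(FPKM + 1). Of all genes, 14.5%, 14.4% and 14.2%, and 12.0% had a lower change in these settings. Genes with a higher change numbered 0 on both TPM scales and 2 without Scgb1a1, against 9.78%, 10.9% and 13.0% of all genes. The cause of these shifts was not tested, beyond the share of TPM that Scgb1a1 takes.

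Leaving out 1 library in turn gave 7 to 24 genes higher and 5 to 25 lower in OTUB1_KD (median -0.05 to 0.19), 15 to 20 higher and 48 to 51 lower in SFD@M (median -0.33 to -0.26), and 1 to 3 higher and 2 to 31 lower for the difference (median -0.48 to -0.20). Of all genes, 35.0 to 42.8% were then higher and 17.5 to 31.5% lower in OTUB1_KD, and 48.0 to 50.1% and 36.5 to 38.9% in SFD@M. For the difference they were 7.63 to 17.5% and 5.59 to 18.7%. Deviations of same-numbered libraries of the compared groups had correlations of -0.00445 to 0.0808, and those of other library pairs -0.0901 to 0.029. Such small correlations over 3 libraries per group cannot decide whether the numbers pair libraries. With the replicate number as a block, 16 genes rose and 8 fell in OTUB1_KD, where 13 fell without it. In SFD@M 16 rose and 49 fell, and 1 and 11 differed upward and downward between the experiments. Of all genes with the block, 38.0% rose and 25.4% fell in OTUB1_KD, and 49.2% rose and 38.6% fell in SFD@M. Between the experiments 11.2% and 8.46% of all genes differed upward and downward. Of 728 checks of named genes in SFD@M over Blank outside the left-out libraries, 686 kept direction and side of the threshold, and 656 of 727 did in OTUB1_KD over NC.

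Summed levels moved with the scale. As a percentage of Blank, SFD@M on TMM-scaled CPM stood at 78.6% for complex I, 75.9% for complex II, 82.8% for complex III, 74.9% for complex IV, 56.5% for complex V and 67.8% for all subunit genes. Without the most abundant gene of each complex the TPM sums stood at 67.7% for complex I, 65.9% for complex II, 64.4% for complex III, 67.1% for complex IV, 62.98% for complex V and 65.4% for all subunit genes. Without Scgb1a1 they were 94.5% for complex I, 81.7% for complex II, 92.8% for complex III, 79.03% for complex IV, 75.99% for complex V and 83.05% for all subunit genes. As a percentage of NC, OTUB1_KD on TMM-scaled CPM stood at 102% for complex I, 92.5% for complex III, 92.4% for complex IV and 88.9% for all subunit genes. Without the most abundant gene of each complex the sums were 94.3% for complex II, 75.8% for complex IV and 82.2% for complex V, and without Scgb1a1 they were 103% for complex I, 94.6% for complex II, 85.5% for complex III, 81.2% for complex IV, 89.4% for complex V and 90.1% for all subunit genes. At this depth 3 counts over a group limit ratios for genes at 0, intervals cover counting error only, and low isoforms such as Cox8c cannot be compared.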

Other observations

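Across the subunit genes, longer transcripts tended to have lower changes. Length and GC content were those of the longest protein-coding GENCODE transcript of each symbol, which need not be the transcript counted. The restricted forms were not set apart. Spearman's rho between transcript length and log2 fold change was -0.461 over 77 subunit genes in SFD@M over Blank and -0.363 in OTUB1_KD over NC, against -0.03 over 14372 genes and -0.117 over 14338 genes. With GC content the values over the 77 genes were 0.332 in SFD@M and 0.30 in OTUB1_KD, against 0.085 and 0.193 over all genes. These are descriptions across genes of the same libraries, and no test was made. Ndufb5 stood out within OTUB1_KD. A predicted transcript held 2.403, 6.23 and 31.8% of the gene's TPM in replicates 1, 2 and 3, against 2.09, 3.06 and 3.17% in NC. The TPM of the curated transcripts of Atp5g1 was split unlike in NC and Blank too. The minor one held 30.4, 25.9 and 24.4% of the gene's TPM in OTUB1_KD and 14.8, 17.5 and 20.4% in NC. It held 26.8, 26.3 and 34.1% in SFD@M and 36.1, 32.6 and 31.9% in Blank. Both were singled out after their values were seen.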
